A study of Panonychus citri with 4 samples.

Results

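The miRNAs miR-71, miR-2 and miR-13 were followed in small RNA libraries of the citrus red mite (Panonychus citri), a plant-feeding spider mite. Members were all rows of the deposited miRNA lists named miR-71, miR-2 or miR-13, alone or with a letter or arm suffix, which gave 16 of the 594 names listed over the 4 libraries. Of these, 7 were miR-71 rows, 8 were miR-2 rows and 1 was a miR-13 row, and the embryo list held 9, the larva list 9, the nymph list 10 and the adult list 8. Each library came from 1 pool of whole animals, with embryos numbering above 3000, larvae 2500, nymphs 1500 and adults 1000, and protonymphs and deutonymphs were mixed in the nymph pool. The sources used here do not give the strain, the host plant or the sex of the adults. A stage rests on 1 unreplicated library, so no p-value is given and differences are between libraries.

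In many invertebrates miR-71 and copies of miR-2 are made from the same primary transcript. In the worm Caenorhabditis elegans miR-71 promotes long life and takes part in setting the asymmetry of a pair of olfactory neurons, and it is missing from Drosophila and from vertebrates. The miR-2 family, with miR-13 as a relative of the same seed, represses the cell death genes reaper, grim and sickle in Drosophila. A miRNA finds its targets mainly through its seed, bases 2 to 8 from the 5′ end, and precursors yield a 5p strand from one arm of the hairpin and a 3p strand from the other.

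The sequences below, copied from the deposited lists in DNA letters with bases 2 to 8 in capitals, show the leading rows and the strands they can pair with. The first pair differs only by a base at the 3′ end, as does the pair of miR-2b rows.
miR-71: tGAAAGACatgggtagtgagat
miR-71a-5p: tGAAAGACatgggtagtgaga
miR-71-3p: tCTCACTActttgtctttggcg
miR-2b: tATCACAGccagctttgatga
miR-2b-3p: tATCACAGccagctttgatg
miR-2-5p: tCGTCAAAggggttgtgaaatg
The seed GAAAGAC was carried by 4 rows of the series, all of them miR-71 rows, with 44642 reads over the libraries. The seed ATCACAG was carried by 7 rows with 6135 reads, 6 named miR-2 and 1 named miR-13, and 0 rows outside the members had either seed. The seed of miR-71-3p, CTCACTA, was found in that row alone.

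From embryo to adult the lists held 248256, 1012278, 1258698 and 438409 reads, or 4.17%, 17.04%, 21.2% and 7.41% of the library totals. Levels are given as a share of the listed reads and as reads per 1000000 of the library total (library RPM), because the choice between them changes the stage ratios. The miR-1 rows alone took 19.6% of listed reads in the embryo and from 47.1% to 50.9% in the other libraries. Ranges in brackets are 95% confidence intervals (exact Clopper-Pearson) for counting error alone, since reads amplified without molecular identifiers do not each stand for a molecule. In whole animals, fewer cells of a type and less of the miRNA per cell cannot be told apart. A row that a library does not list was not read as proof of absence.

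Rows of the same family were joined when they agreed at every base of an overlap of 17 or more and such a sequence group is led by its most abundant row. The 16 members formed 10 of the 366 groups of the series. The miR-71 5p group joined 4 rows, miR-71-3p stood alone and the miR-2 3p group joined 4 rows, and these 3 groups were the members' groups found in all 4 libraries. The other 7 rows held 25 of the members' 72734 reads.

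The miR-71 5p strand was the most abundant member in every library. From embryo to adult it had 4919, 17911, 16627 and 5193 reads. Its share of listed reads was 1.98% (1.93 to 2.04), 1.77% (1.74 to 1.80), 1.32% (1.30 to 1.34) and 1.18% (1.15 to 1.22) in that order. On this scale it was highest in the embryo and lowest in the adult, and no pair of the 4 intervals overlapped. In library RPM it stood at 826, 3015, 2797 and 877 in the same order, so that the larva and nymph were high and the embryo and adult low. It ranked 9, 6, 8 and 9 among the 212, 225, 290 and 224 groups with reads from embryo to adult.

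The other strand, miR-71-3p, is a single row of 22 nt in every library, with 2020, 9303, 8334 and 2270 reads from embryo to adult. Its share of listed reads was 0.814% (0.779 to 0.850), 0.919% (0.901 to 0.938), 0.662% (0.648 to 0.676) and 0.518% (0.497 to 0.539) in that order. The larva was highest and the adult lowest, again with no overlap of intervals. In library RPM it stood at 339, 1566, 1402 and 384.

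The miR-2 3p strand was scarcer, with 399, 1843, 3025 and 865 reads from embryo to adult. Its share of listed reads was 0.161% (0.145 to 0.177), 0.182% (0.174 to 0.191), 0.240% (0.232 to 0.249) and 0.197% (0.184 to 0.211) in that order. The nymph stood above the other libraries, whereas the intervals of the adult and larva overlapped, as did those of the larva and embryo. In library RPM the values were 67.0, 310.2, 509 and 146, so the nymph was highest on both scales. The group ranked 19, 16, 19 and 19.

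**Figure D1:**
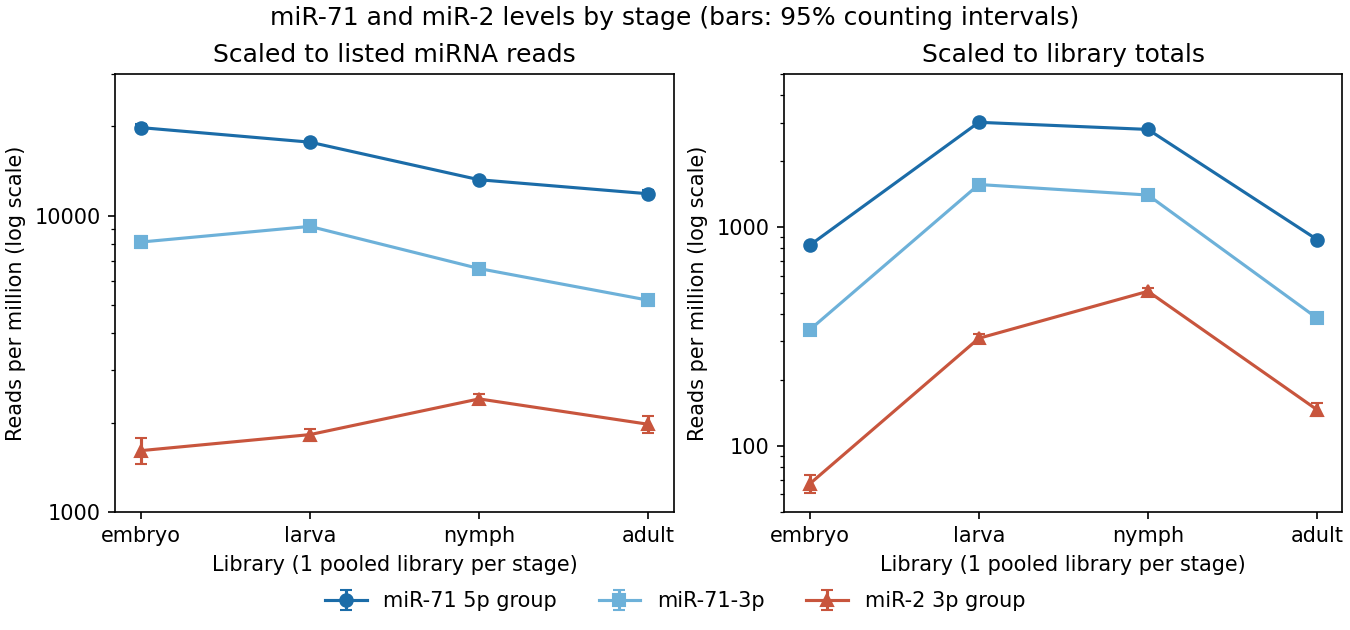
Level of the miR-71 5p group, miR-71-3p and the miR-2 3p group in each library, in RPM on a log axis, scaled to the listed miRNA reads on the left and to the library totals on the right, with 95% counting intervals. The miR-71 strands are lowest in the adult on the left, from 1.18% of listed reads for 5p, while on the right the larva and nymph libraries stand above the embryo and adult for all 3 groups.

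The embryo library listed longer forms of both miRNAs than the other libraries did. In the miR-71 5p group the row miR-71, of 22 nt, held 3756 embryo reads, or 76.4% of the group (75.1 to 77.5), and the row miR-71a-5p, of 21 nt, held 1161 reads, or 23.6% (22.4 to 24.8). The larva, nymph and adult lists had no row for the 22 nt form and gave 17904, 16618 and 5192 reads of the 21 nt form, which was over 99.9% of the group in each. For scale, 3 reads would have been 0.0167% of the larva group, 0.0180% of the nymph group and 0.0578% of the adult group.

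The miR-2 3p group had the same pattern. Its 21 nt row, miR-2b, held 272 embryo reads, or 68.2% of the group (63.4 to 72.7), and its 20 nt row, miR-2b-3p, held 115, or 28.8% (24.4 to 33.5). The other libraries listed no 21 nt form and gave 1766 larva, 2861 nymph and 816 adult reads of the 20 nt form, or 95.8%, 94.6% and 94.3%. In both groups the longer form ends 1 base further at the 3′ end and starts at the same base, so the seed is the same. The lists do not say if the count of a row takes in reads of neighbouring lengths, and they do not show that the longer forms were missing from the later libraries.

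**Figure D2:**
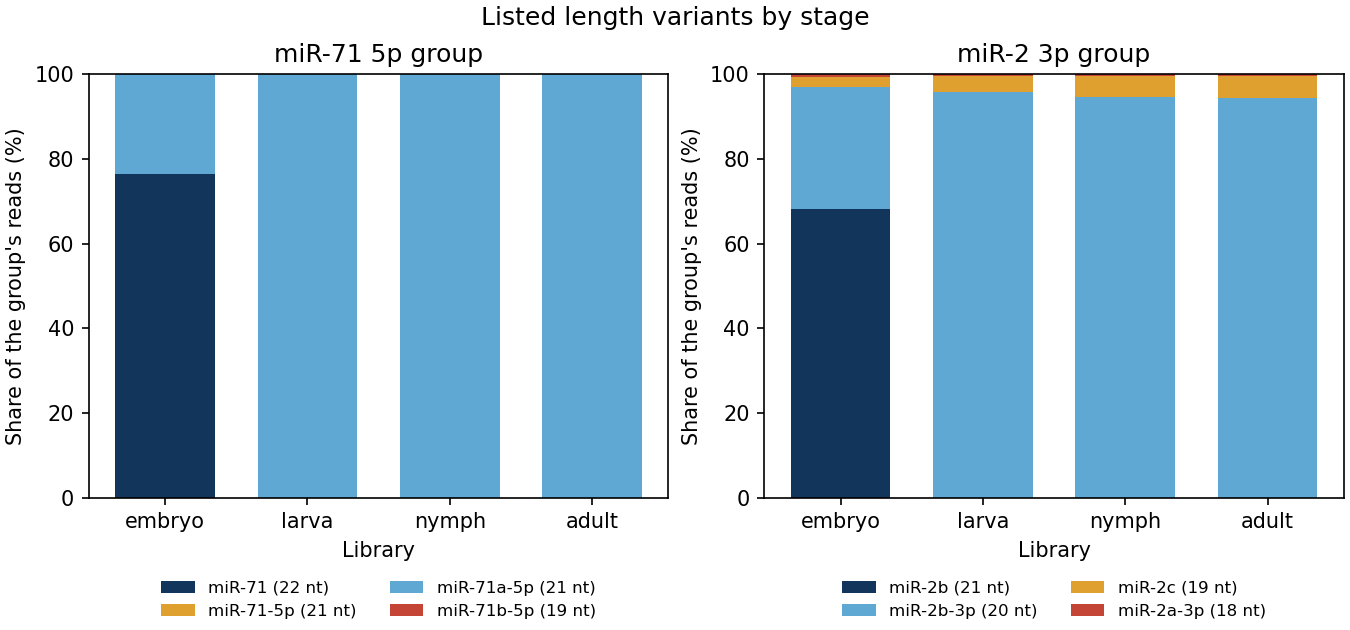
Share of reads held by each listed length variant in the miR-71 5p group (left) and the miR-2 3p group (right) in each library, in percent of the group's reads. The longest variant holds 76.4% and 68.2% of the embryo reads and has no row in the larva, nymph or adult libraries.

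The row that is compared therefore sets the size of the difference between the embryo and a later library. By itself, miR-71a-5p was 3.78-fold higher in the larva than in the embryo in listed reads (3.56 to 4.02), and miR-2b-3p was 3.77-fold higher (3.12 to 4.59). Both were called higher by the 2-fold rule given below, as were 28.8% of the names tested in that comparison. Of the 6 member names tested, 2 were called lower, as were 45 of all 104 names. These were miR-71 and miR-2b, which have no larva row. Once the longer forms were joined, the ratios were 0.893 (0.865 to 0.922) for the miR-71 5p group and 1.13 (1.02 to 1.27) for the miR-2 3p group. In adult over embryo miR-71a-5p alone was 2.53-fold higher (2.38 to 2.70) and miR-2b-3p alone 4.02-fold (3.30 to 4.93). Both were called higher, as were 34 of the 99 names tested, while miR-71 and miR-2b were again called lower, as were 17 of the 99. The joined groups had ratios of 0.598 and 1.23 there, so for miR-71 5p the direction changed with the row compared.

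Shorter forms of miR-2 made a small ladder at the 3′ end. The 19 nt row miR-2c had 9, 71, 153 and 46 reads from embryo to adult, and the 18 nt row miR-2a-3p had 3, 6, 11 and 3. Together they made 4.18% (3.31 to 5.19) of the 20, 19 and 18 nt reads in the larva, 5.42% (4.64 to 6.29) in the nymph and 5.66% (4.22 to 7.42) in the adult. The embryo stood at 9.45% (4.98 to 15.9) from 12 of 127 reads, and its interval overlapped those of the other libraries.

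Rows of miR-71 with a shifted 5′ end, which changes the seed, were rare. The row miR-71-5p starts 1 base later than the leading row and had 2 embryo, 9 nymph and 1 adult reads. The row miR-71b-5p starts 2 bases later and had 7 larva reads. These rows made up from 0.0193% of the group in the adult to 0.0541% in the nymph, and the 4 intervals overlapped.

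Stage ratios of the joined groups were small when scaled to the listed reads. In that scaling a group was called, given 30 or more reads in the pair of libraries, when the interval of its ratio lay wholly beyond 2-fold. None of the 3 member groups was called in any of the 4 comparisons, against a background of 65.8% of 76 groups for larva over embryo, 16.3% of 86 for nymph over larva, 20.9% of 86 for adult over nymph and 37.5% of 72 for adult over embryo. The strands miR-71 5p and 3p come from 1 precursor if the names are right, so the 3 groups are not 3 independent observations. The background groups are not independent either. For larva over embryo all tested let-7 groups lay between -2.38 and -2.03 in log2 ratio. The background takes every listed name as it stands, and whether each is a miRNA of the mite was not tested. It is therefore not a rate for mite miRNAs.

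Between larva and embryo the ratio was 1.13 for miR-71-3p (1.08 to 1.19), beside the 0.893 and 1.13 given above for the other groups. The median log2 ratio was 0.18 over the 3 member groups and -1.02 over all 76 groups, which take in the let-7 groups. Above miR-71 5p lay 31 groups, above miR-71-3p 27 and above miR-2 3p 26. Scaled to the library totals, which multiplies every ratio of this pair by 4.09, miR-71 5p was 3.65-fold higher in the larva (3.54 to 3.77), miR-71-3p 4.62-fold (4.40 to 4.85) and miR-2 3p 4.63-fold (4.15 to 5.17). All 3 were then called higher, as were 44.7% of the groups.

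From larva to nymph miR-71 and miR-2 went in opposite directions in listed reads. The ratio was 0.747 for miR-71 5p (0.731 to 0.763) and 0.7205 for miR-71-3p (0.699 to 0.742), but 1.32 for miR-2 3p (1.25 to 1.40). Only 9 of the 86 groups had a lower ratio than miR-71-3p and 11 a lower one than miR-71 5p, whereas miR-2 3p had 43 groups below it and 42 above. The median log2 ratio was -0.42 over the member groups and 0.38 over all groups. With the library totals the ratios were 0.928, 0.895 and 1.64, and 0 of 3 were called, against 22.1% of all groups. The miR-2 ratio was close to 1 with median-of-ratios scaling (1.01) and TMM scaling (1.06, both for the sum of all miR-2 and miR-13 rows), while that of miR-71 stayed below 1 under every scaling tried.

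From nymph to adult all 3 groups were lower in listed reads, with ratios of 0.897 for miR-71 5p (0.869 to 0.925), 0.782 for miR-71-3p (0.746 to 0.819) and 0.821 for miR-2 3p (0.760 to 0.886). The median log2 ratio was -0.28 over these groups and 0.33 over all groups, which take in the let-7 groups at 0.24 to 0.99. Of the 86 groups, 25 had a lower ratio than miR-71-3p, 28 than miR-2 3p and 30 than miR-71 5p. The library totals multiply every ratio of this pair by 0.350, and miR-71 5p was then 3.19-fold lower in the adult (3.09 to 3.29), miR-71-3p 3.65-fold (3.49 to 3.83) and miR-2 3p 3.48-fold (3.23 to 3.76). All 3 were called lower on that scale, as were 45.3% of all groups.

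Between the ends of the life cycle, adult over embryo, the ratio in listed reads was 0.598 for miR-71 5p (0.575 to 0.622), 0.636 for miR-71-3p (0.599 to 0.676) and 1.23 for miR-2 3p (1.09 to 1.39). The median log2 ratio was -0.65 over these groups and -0.64 over all groups. With the library totals the ratios were 1.06, 1.13 and 2.18, and 0 of 3 were called, against 34.7% of the groups. The miR-71 ratios thus changed direction with the library totals and the miR-2 ratio did not.

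**Figure D3:**
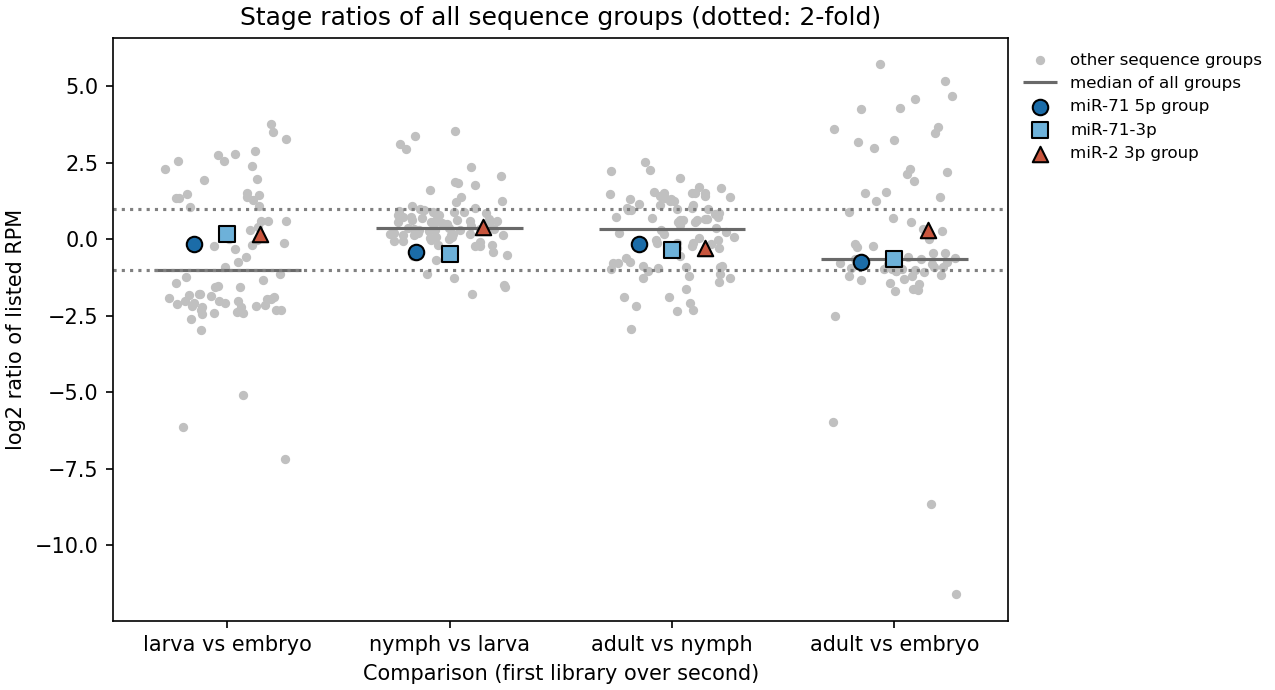
Log2 ratio of listed RPM for every tested sequence group, meaning 30 or more reads in the pair of libraries (grey), in 4 comparisons, with the 3 member groups marked, the median of all groups as a bar and 2-fold as dotted lines. Groups with fewer than 3 reads in a library were set to 3 reads there. All 3 member groups lie inside 2-fold in every comparison, and in nymph over larva both miR-71 strands lie below the median of 0.38.

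Whatever the scaling, the balance between miR-71 and miR-2 can be read within a library. All miR-71 rows together had 17.3 (15.7 to 19.2), 14.8 (14.1 to 15.5), 8.23 (7.93 to 8.55) and 8.60 (8.01 to 9.23) reads per miR-2 or miR-13 read from embryo to adult. The embryo and larva stood high and the nymph and adult low. The ratio in the nymph was 1.79-fold lower than in the larva (1.69 to 1.90), and in the adult it was 2.02-fold lower than in the embryo (1.78 to 2.29). The nymph and adult did not differ beyond counting error, with a ratio of 1.04 (0.964 to 1.13).

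The lower ratio in the nymph than in the larva was found with each miR-71 strand. A difference between embryo and larva was found with the joined 5p group. It was not found with the 3p strand, or with the rows miR-71a-5p and miR-2b-3p alone. The single-length strand miR-71-3p had 5.06 reads per miR-2 3p read in the embryo (4.54 to 5.65) and 5.05 in the larva (4.80 to 5.31), against 2.76 in the nymph (2.64 to 2.87) and 2.62 in the adult (2.43 to 2.84). For miR-71 5p the values were 12.3 (11.1 to 13.7), 9.72 (9.26 to 10.2), 5.50 (5.29 to 5.72) and 6.003 (5.59 to 6.46). With miR-71a-5p and miR-2b-3p alone, the rows of each family with the most reads over the 4 libraries but not in the embryo, they were 10.1 (8.33 to 12.3), 10.1 (9.65 to 10.7), 5.81 and 6.36. Counts of different small RNAs in a library also depend on ligation and amplification, so the ratio is compared between libraries and is not a ratio of molecules.

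**Figure D4:**
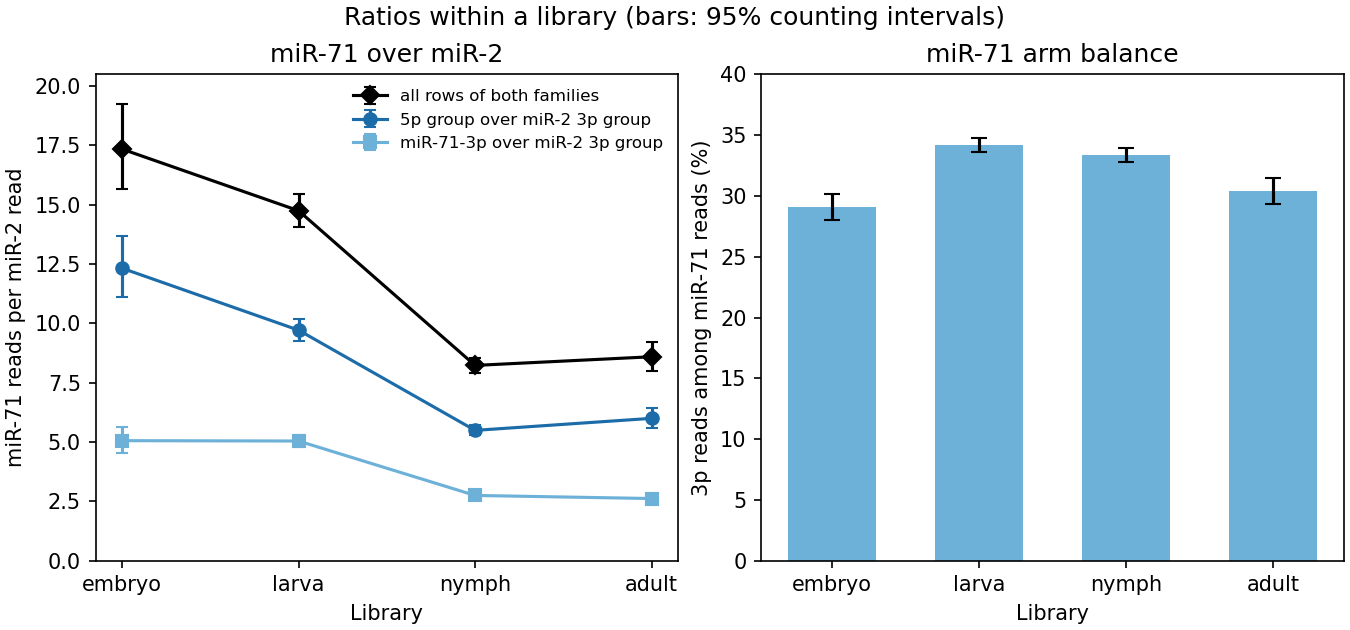
Left, miR-71 reads per miR-2 read in each library for all rows of both families, for the miR-71 5p group and for miR-71-3p. Right, 3p reads in percent of all miR-71 reads. Bars are 95% counting intervals. All 3 ratios are lower in the nymph and adult than in the embryo and larva, and the 3p share stays between 29.1% and 34.2%.

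Both arms of miR-71 were abundant at every stage, with 5p ahead. The 3p strand held 29.1% (28.0 to 30.2), 34.2% (33.6 to 34.8), 33.4% (32.8 to 33.96) and 30.4% (29.4 to 31.5) of miR-71 reads from embryo to adult. The larva and nymph overlapped and lay above the embryo and adult, which also overlapped. The odds of 5p over 3p were 1.26-fold lower in the larva than in the embryo (1.19 to 1.34), and 1.15-fold higher in the adult than in the nymph (1.08 to 1.21). The dominant arm was 5p in all 4 libraries.

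The miR-2 family was nearly all 3p. The row miR-2-5p had 1 embryo read, 1 larva read and 7 nymph reads, or 0.250% (0.00633 to 1.38), 0.0542% (0.00137 to 0.302) and 0.231% (0.0928 to 0.475) of the miR-2 reads whose arm was assigned. The adult list had no miR-2-5p row but 2 reads of a row named miR-2 without an arm, whose bases 2 to 8, CGTCAAA, equal those of miR-2-5p.
miR-2 (adult): cCGTCAAAgcgggctgtcgta
These bases were found in those 2 rows alone.

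The listed strands can pair with each other in sequence. RNAduplex predicted 19 base pairs between miR-71 and miR-71-3p, at -23.5 kcal per mol, and 19 pairs with miR-71a-5p in its place, at -22.9 kcal per mol. For miR-2b-3p it predicted 16 pairs with miR-2-5p, at -21.6 kcal per mol, and 18 with the adult row miR-2, at -23.7 kcal per mol. Such a prediction describes the letters of the rows and does not place them on the same hairpin.

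Rows with a base difference from the leading forms had few reads. Substitutions are written with the base of the reference row first and positions counted from 1 at its 5′ end, and the differing base is in capitals.
miR-71c-5p: tgaaagacaAgggtagtgaga
miR-71d-5p: tgaaagacaCgggtagtgag
miR-2c-3p: tatcacagccaCctttgatga
miR-2-3p: tatcacagccagctttgTtg
Against miR-71a-5p, miR-71c-5p carries T10A and had 1 larva and 9 nymph reads, and miR-71d-5p carries T10C and had 1 nymph read. They made up 0.00558% of the miR-71 5p reads in the larva (0.000141 to 0.0311) and 0.0601% in the nymph (0.0288 to 0.111). Against miR-2b, miR-2c-3p carries G12C and had 1 adult read, and against miR-2b-3p, miR-2-3p carries A18T and had 1 nymph read. The only miR-13 row, miR-13a, had 1 larva read and equals miR-2b with the base at position 12 deleted. All these differences lie outside bases 2 to 8, and the origin of these few reads was not tested.

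Other miRNAs linked to cell death in Drosophila were listed for comparison, with bantam, miR-6, miR-11, miR-14, miR-263, miR-278 and miR-308 on the list. Rows were found for bantam, which represses the cell death gene hid, for miR-263 and for miR-278, in 9 sequence groups. In listed reads 2 of the 5 tested groups, bantam and miR-263b, were higher in the larva than in the embryo and 0 lower (median log2 ratio 1.10), beside 16 higher and 34 lower of all 76 groups and 0 of 3 member groups. In nymph over larva 0 were higher and 1, miR-263b, was lower (median 0.34), beside 11 higher and 3 lower of all 86 groups. In adult over nymph 0 were higher and 2, miR-263-5p and miR-278-3p, lower (median -1.90), beside 9 higher and 9 lower of all 86. In adult over embryo 1 of 4, bantam, was higher and 0 lower (median -0.65), beside 20 higher and 7 lower of all 72. The library totals multiply every ratio by 4.09 in the first comparison, where 5 of 5 list groups and 3 of 3 member groups were then higher, beside 44.7% of all groups. They multiply every ratio by 0.350 in adult over nymph, where 5 of 5 and 3 of 3 were lower, beside 45.3% of all groups.

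A list of miRNAs linked to lifespan in worm or fly held lin-4, miR-34, miR-228, miR-238, miR-239, miR-246 and miR-277, and miR-34 was the only one with rows. In listed reads 1 of 1 tested group was higher in larva over embryo, beside 16 of all 76, and 1 of 1 in adult over embryo, beside 20 of all 72. In nymph over larva 1 of 2 was higher, beside 11 of all 86. That group was the strand miR-34-3p, with 3 embryo, 1 larva and 32 nymph reads and no adult row. The miR-34 5p group was not called there, with a ratio of 1.46 (1.44 to 1.48). In adult over nymph the 5p group was higher and miR-34-3p lower, beside 9 and 9 of all 86. The miR-34 5p group had 824, 38263, 69392 and 76683 reads from embryo to adult and was called higher in adult over embryo (52.7-fold, 49.2 to 56.5, in listed reads). Its ratio of adult over nymph was 3.17 in listed reads and 1.11 with the library totals, where it was not called. The adult to embryo ratio of miR-71 5p on the same scale was 0.598.

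Profiles were compared over the 4 libraries by the largest difference in centred log2 level, a measure that no common scaling of a library changes, among the 28 groups with at least 100 reads in every library. Leaving out its own rows, the group nearest the miR-71 family by this measure was the miR-2 3p group. Its largest difference was 0.58 on the log2 scale. The miR-2 3p group was followed by miR-10-3p with 0.61 and miR-9a-3p with 0.74, out of 26 groups compared. Nearness here did not mean the same course in listed reads. On that scale the centred values from embryo to adult were 0.317, 0.260, -0.178 and -0.399 for the miR-71 family. For the miR-2 3p group they were -0.264, -0.0842, 0.316 and 0.0318, opposite in sign in all 4 libraries. The signs of centred values, unlike the differences, change with the scaling. In library RPM the miR-71 family stood at 1165, 4581, 4200 and 1261, and the miR-2 3p group at 67.0, 310.2, 509 and 146. Both were then higher in the larva and nymph than in the embryo and adult. In listed reads the values of miR-10-3p had the same signs as those of the miR-71 family in every library. The groups nearest the miR-2 family were miR-124-3p with 0.30, miR-993a-3p with 0.36 and miR-71-3p with 0.49, out of 27. Of these, miR-71-3p was opposite in sign to the miR-2 family in all 4 libraries in listed reads. In library RPM both were higher in the larva and nymph than in the embryo and adult. With 4 values a profile this is a description of these libraries.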

How the data were processed

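Per the labels' protocols, small RNAs between 18 and 30 nt were selected on a 15% PAGE gel before adapter ligation, reverse transcription and PCR. Per the file headers, each deposited list pairs a miRNA name with its count of reads (whole numbers, not normalized), 1 sequence and a normalized value. The authors' normalized values are RPM, that is reads per 1000000 of a fixed total for the library: count over RPM gave from 5918115 to 5957910 reads. The sources used here do not give the matching program, miRNA reference, mismatch rule or genome build.

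Reads were scaled to the listed miRNA reads or to those totals. Ratios between libraries have exact conditional binomial 95% intervals (scipy 1.17.1). Arms came from the name or from an overlap with a named arm. TMM (edgeR 4.0.16) and median-of-ratios (DESeq2 1.42.0) gave only alternative scaling factors, and no count test was run because each stage has 1 library. Pairing used RNAduplex (ViennaRNA 2.7.2). The rule for names took all member rows, rows with their seeds, 3 groups most like each family and the called members of both comparison lists, of which those described in full elsewhere are given as counts. Members and lists were chosen with earlier results of these data known, and the comparison of length variants after their values were seen.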

Additional observations from a re-analysis of the deposited data

How the results depend on the processing

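With 1 library per stage no replicate could be left out, and no paired analysis was possible because each stage has 1 library and the labels carry no replicate numbers. Among the settings tried on the sum of all rows of a family, the scaling moved the family ratios most. In adult over embryo the choice of row moved them further. There miR-71a-5p alone had a ratio of 2.53 and miR-2b-3p alone 4.02 in listed reads. In the order larva over embryo, nymph over larva, adult over nymph and adult over embryo, the miR-71 ratios of 0.962, 0.738, 0.858 and 0.609 became 3.93, 0.917, 0.300 and 1.08 with the library totals, 2.26, 0.591, 0.601 and 0.802 with TMM, and 2.69, 0.563, 0.563 and 0.854 with median-of-ratios scaling. The miR-2 ratios of 1.13, 1.32, 0.822 and 1.23 became 4.63, 1.64, 0.287 and 2.18 with the library totals, 2.66, 1.06, 0.575 and 1.62 with TMM, and 3.17, 1.01, 0.539 and 1.72 with median-of-ratios scaling. Without miR-1 in the totals, miR-71 stood at 1.55, 0.749, 0.796 and 0.924, and miR-2 at 1.82 for larva over embryo and 1.87 for adult over embryo. The 5p group alone moved the miR-71 ratio to 0.893 for larva over embryo and 0.897 for adult over nymph. Leaving out rows under 10 reads kept all 8 family ratios, all 4 miR-71 to miR-2 ratios and all 4 shares of 3p within the intervals of the reported values.

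From embryo to adult the number of miR-71 reads per miR-2 read was 12.3, 9.72, 5.50 and 6.003 with the leading sequence group of each family, and 10.1, 10.1, 5.81 and 6.36 with miR-71a-5p and miR-2b-3p alone, the names with the most reads summed over the libraries, which do not lead in the embryo. The calls over all sequence groups numbered 50, 14, 18 and 27 in the order of comparisons above. At 1.5-fold they became 24 for nymph over larva and 40 for adult over nymph. At 3-fold they became 27 for larva over embryo, 6 for nymph over larva and 7 for adult over nymph. With the library totals 39 groups were called for adult over nymph. The split of calls moved with the scaling, from 16 higher and 34 lower to 34 and 3 for larva over embryo, from 11 and 3 to 17 and 2 for nymph over larva, from 9 and 9 to 0 and 39 for adult over nymph, and from 20 and 7 to 21 and 4 for adult over embryo. An overlap of 15 or 19 bases in place of 17, and a minimum of 10 reads in place of 30, left every count within 1.5 times the reported one. The miR-2 values of the embryo rest on 400 reads, which sets the width of every interval that uses them.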

Other observations

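Among the 31 sequence groups with several rows and at least 30 reads in every library, 5 had a mean listed length in the embryo more than 0.5 nt above that of every other library, a limit chosen after the values were seen. Besides the miR-71 5p group (21.8 nt in the embryo and 21.0 in the other libraries) and the miR-2 3p group (20.6 nt against 19.94 to 19.955), these were miR-9a-3p (23 nt against 21), miR-263b (22.1 nt against 21.3 in the larva and 20 in the nymph and adult) and miR-305c-5p (23 nt against 22 in the larva and 21 in the nymph and adult). In 3 of the 5, the 2 member groups and miR-9a-3p, the other libraries lay within 0.1 nt of each other. Other groups went the other way or changed between later libraries. The miR-190-5p group had a mean of 20 nt in the embryo and adult and 23 nt in the larva and nymph, and the miR-252-5p group 19 nt in the embryo and adult and 21.0 nt in the larva and nymph.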
